A study of Mus musculus with 4 samples.

Results

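The 10 genes described here encode cytokines, alarmins and receptor chains of the type 2 and IL-6 families: Il33, Tslp, Il1rl1, Il4ra, Il13ra1, Il13ra2, Il6, Il11, Il6st and Il11ra1. They were chosen by gene symbol, with 1 probe set each, and make up 10 of the 23740 named probe sets on the array. RNA came from airway smooth muscle cells sorted from lungs of adult Acta2-hrGFP;Cspg4-DsRED mice, in which the Acta2 promoter (smooth muscle actin) drives a green protein and the Cspg4 promoter (a proteoglycan of pericytes and vascular smooth muscle) a red one. Green cells without red signal were taken, and each condition is 1 Affymetrix array of RNA pooled from 3 mice. All 4 groups carried both reporters. Their strain is not stated in the sources used here. In the diet experiment, the VAS pool came from mice on a regular vitamin A-sufficient diet (15 IU per gram) and the VAD pool from mice on a deficient diet (under 0.1 IU per gram), for 3 days in one passage of the labels and 5 days in another. In the antagonist experiment, both pools ate powdered food with sufficient vitamin A for 3 days. It held corn oil as vehicle for CTR and, for BMS, 5 mcg per gram of the compound of that name, which blocks every retinoic acid receptor. The comparisons ask how these genes stood when less retinoic acid signal, the active product of vitamin A, reached the muscle.

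Type 2 immunity is the arm of the immune response at work in allergic asthma and in defence against worms. IL-33 and TSLP are alarmins, cytokines released by barrier and stromal cells, and IL-33 acts through its receptor ST2, the product of Il1rl1. IL-4 and IL-13 signal through the chains encoded by Il4ra and Il13ra1 to the transcription factor STAT6, while the product of Il13ra2 binds IL-13 as a decoy. IL-6 and IL-11 bind their own receptor chains and then signal through a shared one, gp130, the product of Il6st, to STAT3. Airway smooth muscle is known as a target of IL-13, which strengthens its contraction, and as a source of IL-6, IL-11 and eotaxin.

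None of the 8 members past the filter on low values stood 2-fold apart in VAD against VAS or in BMS against CTR. Il33 came nearest, 1.94-fold higher in BMS than in CTR, and Il4ra was 1.56-fold higher in VAD than in VAS. The widest gap lay between the vitamin A-sufficient controls, where Il33 was 3.89-fold and Il11 1.98-fold lower in CTR than in VAS. The filter kept a gene whose highest value reached the median of all named values, 6.07 on the log2 scale, and left 12693 genes. It dropped Il13ra2 and Il1rl1. Over these genes the share at least 2-fold apart was 0.646% for VAD against VAS, 1.34% for BMS against CTR and 2.02% for CTR against VAS, so a count of 0 among 8 is near the background in both experiments. Each group is 1 array with no replicates, so a difference compares a pair of pools and has no spread between mice to be set against, and the controls differ as well in the form of the food, the vehicle and the experiment. In sorted bulk RNA, fewer cells of a type and less RNA per cell cannot be told apart.

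Smooth muscle markers were high on every array: all 7 of the list (Acta2, Myh11, Tagln, Cnn1, Des, Lmod1 and Actg2) lay above the array's median, with a list median between 11.35 and 11.85. All 7 were higher in VAD than in VAS, by a median of 0.22, where 51.5% of all genes were higher. In BMS all 7 were lower than in CTR, with a median of -0.16, where 48.4% of all genes were lower. Fibroblast markers were also present, with 8 to 10 of 10 above the array's median and a list median of 10.23 in VAS, 10.33 in VAD, 8.87 in CTR and 10.34 in BMS. Pericyte markers were above the array's median in 5 of 5 cases, with list medians from 9.12 to 9.83, and Cspg4, the promoter gene of the red reporter that the sort excluded, stood between 7.71 and 8.22. Of 6 endothelial markers 5 lay above it, with list medians from 7.22 to 8.12. Of 7 alveolar epithelial markers 4 lay above it on every array, with Sftpc up to 10.86, while the epithelial adhesion gene Epcam stood between 4.27 and 4.53. Macrophage markers had list medians between 5.60 and 6.02, near the arrays' medians of 5.97 to 6.02. These levels do not show that other cell types were absent.

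**Figure D1:**
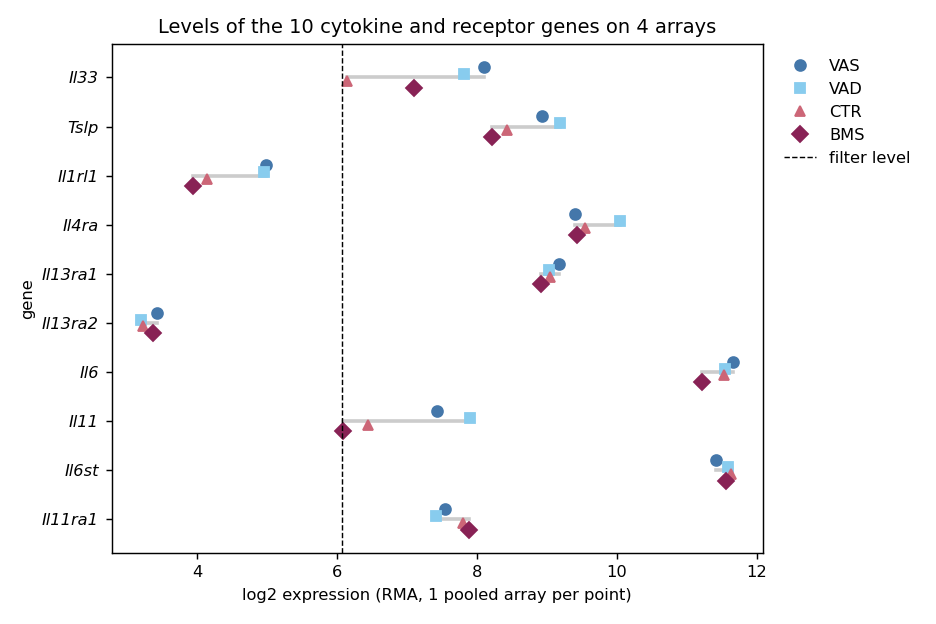
Levels of the 10 genes on the log2 scale (horizontal axis), with 1 point for each pooled array, a grey line from the lowest to the highest array, and the filter level of 6.07 as a dashed line. Il33 and Il11 spread over 1.96 and 1.81, while Il6st spread over 0.21. Probe sets differ in brightness, so positions of different genes do not rank their transcripts.

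Promoter sequences are shown for Il6, whose values were among the highest of the array, and for Il11 and Il33, which varied most. These are the 250 bases before the start site in RefSeq's GRCm38.p6 tables, with motif matches in capitals. They lie at chr5:30012864-30013113 on the plus strand for Il6, at chr7:4778142-4778391 on the minus strand for the start of Il11 with a match, and at chr19:29924863-29925112 and chr19:29945540-29945789 on the plus strand for the starts of Il33. The array does not show which start was used.
Il6: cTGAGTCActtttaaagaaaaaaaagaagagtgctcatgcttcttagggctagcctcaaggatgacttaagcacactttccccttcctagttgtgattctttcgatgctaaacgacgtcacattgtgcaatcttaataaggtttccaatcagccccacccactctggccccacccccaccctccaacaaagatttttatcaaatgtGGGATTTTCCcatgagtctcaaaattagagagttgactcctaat
Il11: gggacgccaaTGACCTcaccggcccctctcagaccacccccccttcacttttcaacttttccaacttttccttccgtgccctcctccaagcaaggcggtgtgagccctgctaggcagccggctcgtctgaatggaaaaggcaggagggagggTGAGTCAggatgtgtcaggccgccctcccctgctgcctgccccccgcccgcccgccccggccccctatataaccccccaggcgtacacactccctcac
Il33, first start: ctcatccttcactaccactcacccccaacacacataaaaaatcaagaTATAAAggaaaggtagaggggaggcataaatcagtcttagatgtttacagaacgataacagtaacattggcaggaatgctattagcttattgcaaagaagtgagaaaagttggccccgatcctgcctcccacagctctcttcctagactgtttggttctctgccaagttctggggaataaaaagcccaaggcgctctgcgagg
Il33, second start: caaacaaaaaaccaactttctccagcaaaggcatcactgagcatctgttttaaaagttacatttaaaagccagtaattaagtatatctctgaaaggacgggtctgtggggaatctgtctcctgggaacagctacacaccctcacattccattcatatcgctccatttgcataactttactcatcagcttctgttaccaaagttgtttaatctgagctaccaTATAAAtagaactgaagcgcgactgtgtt

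The capitals mark letters that a search of both strands found. In Il6 they are TGAGTCA, a match to the AP-1 motif TGANTCA, 249 bases before the start, and GGGATTTTCC, a match to the NF-kB motif (GGGA, any 2 bases, TTCC), 44 bases before it. Of all 32851 promoters of this length in the table, 6.75% hold the AP-1 motif and 1.21% the NF-kB motif. In Il11 the capitals are TGAGTCA, 98 bases before the start, and TGACCT, the reverse complement of AGGTCA, the core site of retinoic acid receptors, 240 bases before it. AGGTCA was found in 14.0% of all promoters. In Il33 they are TATAAA, the letters of the TATA box motif, which 12.4% of promoters hold at any place in the window. It lies 203 bases before the first start shown and 29 bases before the second start. A direct repeat of AGGTCA with any 5 bases between, a classic retinoic acid response element, was in 0 of the 13 promoters that the table gives for 9 members and in 3 of all 32851. The repeat with 2 bases between gave the same counts. The STAT motif TTCNNNGAA was in 0 of the 13 and in 7.02% of all. No motif contains another one except the repeats, which hold AGGTCA. These are matches of letters in a window, and a missing match speaks only of those exact letters in that window. The exact repeats are so rare over all promoters that 0 of 13 says nothing particular to these members.

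Il33, the alarmin gene of barrier and stromal cells, stood at 8.10 in VAS, 7.82 in VAD, 6.14 in CTR and 7.10 in BMS (Entrez gene 77125). Both diet pools lay above both antagonist pools, and CTR was the lowest of the 4 arrays, just above the filter level. BMS minus CTR was 0.96 on the log2 scale, higher than the same difference of 98.8% of the genes past the filter. VAD minus VAS was -0.28. The direction in BMS turns with the control: against VAS, BMS was 2.01-fold lower, and VAD was 3.21-fold higher than CTR. Against the mean of both controls the BMS difference was -0.02.

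Several markers of fibroblasts, leukocytes and alveolar epithelium were also lower in CTR than in VAS. Pi16, which marks adventitial fibroblasts, stood at 10.87 in VAS, 10.77 in VAD, 8.74 in CTR and 9.95 in BMS, and was one of the 3 genes nearest to Il33 in profile. Cd34 stood at 10.38, 10.22, 9.01 and 10.72 in the same order, and Clec3b at 9.21, 9.30, 7.72 and 9.23. Of the 10 fibroblast markers, 10 were higher in BMS than in CTR, 6 of them at least 2-fold, with a median difference of 1.14, where 51.6% of all genes were higher. Between the controls 8 of 10 were lower in CTR, 5 of them at least 2-fold, with a median of -0.93. The list's summed linear value, on the log2 scale, was 14.23 in VAS, 14.09 in VAD, 13.78 in CTR and 14.32 in BMS. In BMS Cd34 and Scara5 stood above VAS, whereas Il33 and Pi16 stood below it. Ptprc, the pan-leukocyte gene CD45, was at 7.47 and 7.39 in VAS and VAD and at 5.97 and 6.21 in CTR and BMS. Leukocyte markers did not all go this way. Of the 4 lymphoid markers past the filter, Ptprc included, 2 were lower in CTR than in VAS and 2 higher. The higher ones were Cd3e, by 0.36, and Rora, by 0.21. Of the 3 macrophage markers past the filter, 3 were lower in CTR. Of the 4 alveolar epithelial markers past the filter, CTR was below VAS for all, the median difference being -1.17, and 2 of 4 were higher in BMS than in CTR. Sftpc, a surfactant gene of alveolar type 2 cells, which are a known source of IL-33 in mouse lung, stood at 10.86 in VAS, 9.28 in VAD, 7.32 in CTR and 9.15 in BMS. Its order over the arrays was that of Il33, while Sftpb stood at 7.13, 6.54, 6.34 and 6.28. Pericyte markers went the other way between the controls, with 5 of 5 higher in CTR and a median of 0.54, as did the fibroblast markers Col1a1 and Lum. The part of these cells in the Il33 differences was not tested.

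**Figure D2:**
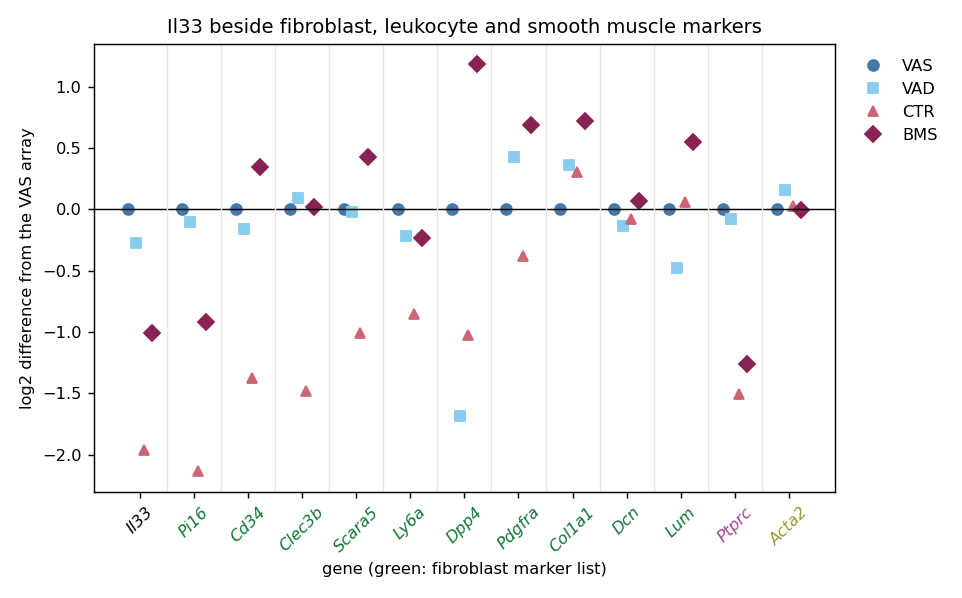
Log2 difference of each array from VAS (vertical axis) for Il33, the 10 fibroblast markers (green names), the leukocyte gene Ptprc and the smooth muscle gene Acta2, with 1 point per pooled array. In CTR, Il33 is 1.96 below VAS and Pi16 2.14 below, while Acta2 stays within 0.16 of VAS on every array. Smooth muscle markers that are not drawn moved more: Cnn1 was 0.44 below VAS in BMS, and Des 0.40 above VAS in VAD.

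Likeness was measured for members that ranged over at least 1 on the log2 scale, as the Euclidean distance between profiles centred on their own mean over the 4 arrays. For Il33, the nearest of 11818 genes were AW112010 at a distance of 0.23, Pi16 at 0.26 and Cd74, the invariant chain of class II histocompatibility molecules, at 0.28. For Il11 they were Nrg1, the growth factor neuregulin, at 0.09, Tmem171 at 0.23 and Hp, the acute phase protein haptoglobin, at 0.30. For Il1rl1 they were Capza1 at 0.09, Mmd at 0.10 and the kinase gene Pim1 at 0.10. With 4 points a profile, these distances describe these arrays only.

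Tslp, the second alarmin gene, stood at 8.93 in VAS, 9.19 in VAD, 8.43 in CTR and 8.22 in BMS (Entrez gene 53603). As with Il33, both diet pools lay above both antagonist pools, but here BMS was the lowest. VAD minus VAS was 0.26 and BMS minus CTR -0.21, while the controls were 0.49 apart, with CTR the lower. The TSLP receptor chain gene Crlf2 kept between 8.04 and 8.26 on the 4 arrays, a smaller range than that of its ligand.

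Il1rl1, which encodes the IL-33 receptor ST2 of mast cells and type 2 lymphocytes, lay below the filter at 4.98 in VAS, 4.95 in VAD, 4.14 in CTR and 3.94 in BMS (Entrez gene 17082). The diet pools were higher than the antagonist pools by 0.92 on average. Of the 7 mast cell markers, 3 passed the filter: Kit, between 8.63 and 8.98, Tpsb2, at 6.22 in VAS and 5.37 to 5.44 elsewhere, and Hdc. Hdc, the histidine decarboxylase gene, was at 7.30 in VAS, 8.59 in VAD, 5.91 in CTR and 5.94 in BMS, 2.45-fold higher in VAD than in VAS. The Fc receptor genes Ms4a2 and Fcer1a, which define mast cells and basophils, stood between 2.90 and 3.36. Cpa3, the mast cell carboxypeptidase gene, was at 4.74 in VAS and between 3.40 and 3.63 elsewhere. The values of Il1rl1 lie low on the array, where a level cannot be told from background without scanner intensities, which were not used here. The coreceptor gene Il1rap, which the IL-33 receptor shares with the IL-1 receptor, was at 7.86 in VAS, 8.20 in VAD, 8.33 in CTR and 8.25 in BMS.

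Il4ra, the receptor chain shared by IL-4 and IL-13, stood at 9.40 in VAS, 10.04 in VAD, 9.55 in CTR and 9.44 in BMS (Entrez gene 16190). VAD was the array that stood apart, and the other arrays lay within 0.15 of each other. VAD minus VAS was 0.64, above the same difference of 99.0% of genes past the filter. It was 0.49 against CTR, so the sign held with either control. BMS minus CTR was -0.11. At a 1.5-fold threshold, Il4ra was the only one of the 8 members past it in VAD against VAS, where 3.57% of all genes passed, and Il33 the only one in BMS against CTR, where 4.99% passed. Between the controls 2 members, Il33 and Il11, passed it, where 8.53% of all genes did.

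Il13ra1, the chain that joins Il4ra in the receptor of non-blood cells, varied little, at 9.17 in VAS, 9.04 in VAD, 9.04 in CTR and 8.92 in BMS (Entrez gene 16164). Its differences were -0.13 in VAD against VAS, -0.12 in BMS against CTR and -0.13 in CTR against VAS, so the controls were as far apart as the treated pools from their controls. Il13ra2, the decoy receptor gene, which IL-13 strongly induces in many cells, lay at the bottom of the array on all 4 arrays, at 3.43, 3.20, 3.23 and 3.37 in VAS, VAD, CTR and BMS (Entrez gene 16165).

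Il6, the gene of the acute phase cytokine, stood at 11.66 in VAS, 11.54 in VAD, 11.53 in CTR and 11.22 in BMS (Entrez gene 16193). These values lay between the 99.3 and the 99.7 percentile of each array's named probe sets. BMS was the lowest array, 0.32 below CTR and 0.44 below VAS, and VAD was 0.12 below VAS and 0.01 above CTR. Il6 was therefore lower than the matched control in both experiments, by no more than 1.24-fold.

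Il11, the cytokine gene that TGF-beta induces in fibroblasts and smooth muscle, stood at 7.43 in VAS, 7.90 in VAD, 6.45 in CTR and 6.09 in BMS (Entrez gene 16156). The experiments went opposite ways, with VAD minus VAS at 0.47 and BMS minus CTR at -0.36. Both differences were smaller than the gap of 0.99 between the controls. BMS was 2.53-fold below VAS, and VAD was 2.74-fold above CTR. Its value in BMS lay close to the filter level.

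Il6st, the gene of the shared signalling chain gp130, kept between 11.43 and 11.63, at 11.43 in VAS, 11.60 in VAD, 11.63 in CTR and 11.56 in BMS (Entrez gene 16195). Here VAS was the lowest array and the other 3 differed by at most 0.07. Il11ra1, the IL-11 receptor chain, stood at 7.54 in VAS, 7.41 in VAD, 7.80 in CTR and 7.89 in BMS (Entrez gene 16157). It was higher in both antagonist pools than in both diet pools, opposite to its ligand gene. Mouse has a near-identical gene, Il11ra2, so signal on this probe set may come from either copy.

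**Figure D3:**
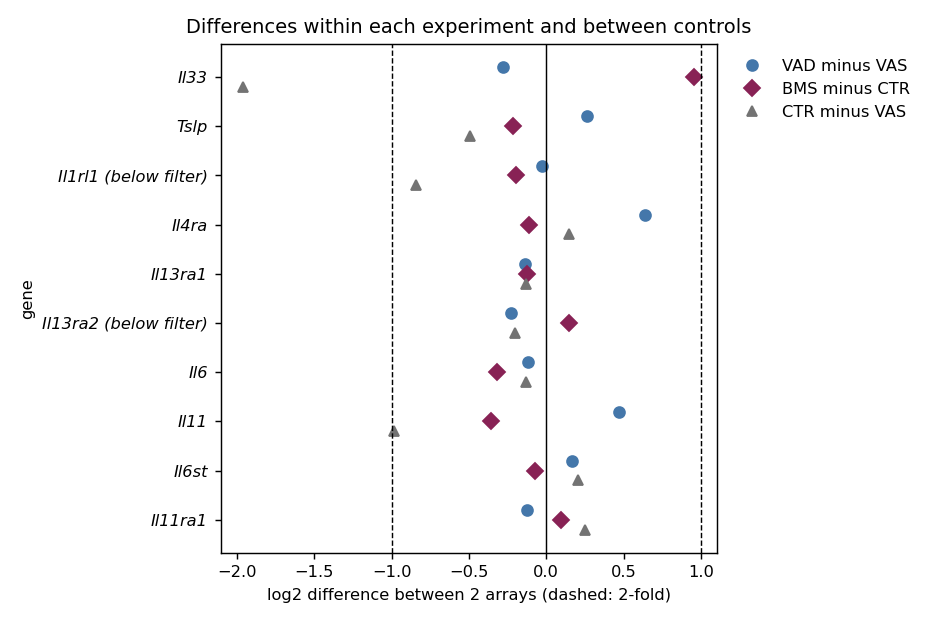
Log2 differences between arrays (horizontal axis) for each gene, as VAD minus VAS (circles), BMS minus CTR (diamonds) and CTR minus VAS (triangles), with dashed lines at 2-fold. All circles and diamonds lie inside 2-fold, and the triangle of Il33, at -1.96, lies outside it.

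Across the experiments, 4 of the 8 members past the filter (Il33, Tslp, Il6 and Il11) were lower in both antagonist pools than in both diet pools, and 1 (Il11ra1) was higher. Over all genes past the filter, 21.9% were lower in this way and 23.8% higher. For Il6 the gap was 0.01, between VAD and CTR. With cyclic loess its VAD minus VAS was -0.134 and its CTR minus VAS -0.095, so that gap turned. Past the filter the lower ones were ligand genes, but the receptor gene Il1rl1, below the filter, was lower in this way as well. With 8 genes this is a description. Over the 8 members the median difference was 0.03 in VAD against VAS, -0.12 in BMS against CTR and -0.13 in CTR against VAS, beside 0.01, 0.01 and 0.002 over all genes. The comparison of the controls shares an array with each of the others, so these values are not independent.

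The contrast with more than 1 array a side set VAD and BMS against VAS and CTR with limma, with the experiment as a block and Benjamini-Hochberg adjustment over 12693 genes. It called 0 of the 8 members and 0 of all genes (0%). At an unadjusted p under 0.05 it held 0 members and 487 genes, or 3.84% of those tested. The member with the smallest p was Il6, with a mean difference of -0.22, a 95% interval from -0.57 to 0.14 and an adjusted p of 1 from limma. For Il4ra the mean difference was 0.26, with an interval from -0.29 to 0.82. For Il33 it was 0.34, from -0.46 to 1.14. The fit has 1 residual degree of freedom. For Il11 the interval ran from -0.53 to 0.65. The intervals of Il4ra, Il33 and Il11 include differences of 1.5-fold, so the fit does not show that these genes were the same.

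The other genes of these pathways were read from 9 lists, with 103 genes past the filter besides the members. Of these, 1 was 2-fold apart in VAD against VAS, 3 in BMS against CTR and 11 in CTR against VAS, or 0.971%, 2.91% and 10.7%, beside 0.646%, 1.34% and 2.02% of all genes. All 11 were lower in CTR than in VAS. They were the chemokine genes Ccl11 and Ccl7, the cytokine genes Csf2 and Il1b, the acute phase genes Hp, Lbp, Lcn2 and Ptx3, the receptor chain gene Il2rg, the adhesion gene Vcam1 and Retnla.

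Type 2 cytokine genes themselves were low. Il4, Il5, Il9 and Il3 lay below the filter on every array, and Il13 reached 6.10 at most, in VAD. Csf2, the gene of GM-CSF, stood at 6.33 in VAS, 6.03 in VAD, 3.95 in CTR and 4.26 in BMS. Both antagonist pools were thus lower than both diet pools.

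Among the 27 IL-4 and IL-13 target genes, 12 passed the filter. Retnla, which IL-4 strongly induces in macrophages, was 6.97-fold lower in VAD and 5.79-fold higher in BMS than the matched control, at 8.63 in VAS, 5.83 in VAD, 4.89 in CTR and 7.42 in BMS. Its highest array was VAS, so BMS stood below the diet control. Ccl11, the eotaxin gene that smooth muscle makes in response to IL-13, was at 8.75, 8.77, 7.54 and 8.09 in VAS, VAD, CTR and BMS, with CTR the lowest array as for Il33. Postn, the matrix protein periostin, was 0.65 higher in BMS than in CTR and 0.19 higher in VAD than in VAS. Spdef and Tgm2 were 0.52 and 0.45 higher in VAD than in VAS. Arg1, Clca1 and Muc5ac lay below the filter on all arrays. The list's median was 0.04 in VAD and 0.07 in BMS, and 0.52 and -0.50 against the other experiment's control.

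Receptor chains, adaptors and transducers held no gene 2-fold apart within an experiment. Of 9 receptor chains and adaptors past the filter, Il2rg, the common gamma chain of lymphocytes, was 0.67 lower in VAD than in VAS and 0.59 higher in BMS than in CTR. Traf6 was 0.50 higher in VAD. Of the 13 JAK and STAT transducers, Stat6, the factor of IL-4 and IL-13, was 0.44 higher in VAD and 0.09 higher in BMS, at 8.85, 9.29, 9.41 and 9.50 in VAS, VAD, CTR and BMS. VAS was thus its lowest array. Jak2 was lower than the matched control in both experiments, by 0.17 and 0.46. Stat3 kept between 11.26 and 11.54.

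Of the 13 feedback genes of these receptors, 8 were below their control in VAD, with a median of -0.02, and 10 in BMS, with a median of -0.05, and none was 2-fold apart. Over all genes 48.4% were below their control in VAD and 48.4% in BMS. Cish, a STAT5-induced inhibitor, was at 10.06 in VAS, 10.04 in VAD, 9.88 in CTR and 9.27 in BMS, lowest in BMS against either control. Ptpn2, a phosphatase of JAK and STAT proteins, stood at 8.90, 8.63, 8.50 and 8.09 in the same order. Socs3, the feedback inhibitor that STAT3 induces, kept between 7.41 and 7.68.

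Other ligands and receptors of the IL-6 family held no gene 2-fold apart. Lif, leukemia inhibitory factor, was 0.66 higher in VAD than in VAS and 0.01 higher in BMS than in CTR. Cntf was lower in both, by 0.67 and 0.43. Among receptors, Cntfr stood at 10.09, 10.38, 10.31 and 10.65 in VAS, VAD, CTR and BMS, with both treated pools above both controls, as for 14.6% of all genes past the filter. Il6ra was 0.50 and 0.12 higher than its controls. Osmr, the oncostatin M receptor chain that pairs with gp130, was 0.40 lower in BMS than in CTR and 0.06 higher in VAD than in VAS.

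Target genes of IL-6 and STAT3 held 25 genes past the filter besides Il4ra, which is in this list too. In VAD 19 were above 0, with a median of 0.11, beside 51.5% of all genes and their median of 0.01, and none was 2-fold apart. In BMS 12 were above 0, Lbp was 4.91-fold higher and Saa1 2.30-fold lower, and 51.6% of all genes were above 0. The serum amyloid genes went opposite ways in the experiments: Saa3 was 0.96 higher in VAD than in VAS and 0.60 lower in BMS than in CTR, and Saa1 was 0.71 higher and 1.20 lower. Saa1 stood at 5.65 in VAS, 6.36 in VAD, 6.39 in CTR and 5.18 in BMS. Its VAS and BMS values lay below the filter level of 6.07. Lbp, the lipopolysaccharide binding protein, was at 8.96 in VAS, 8.70 in VAD, 7.13 in CTR and 9.42 in BMS, so CTR stood apart. Of the 18 NF-kB genes and inflammatory partners of Il6, none was 2-fold apart within an experiment. Nfkb1 was lowest in BMS, at 9.91, against 10.43 to 10.58 on the other arrays. Il1b was at 8.90 in VAS, 9.46 in VAD, 7.06 in CTR and 7.38 in BMS, 3.58-fold lower in CTR than in VAS.

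**Figure D4:**
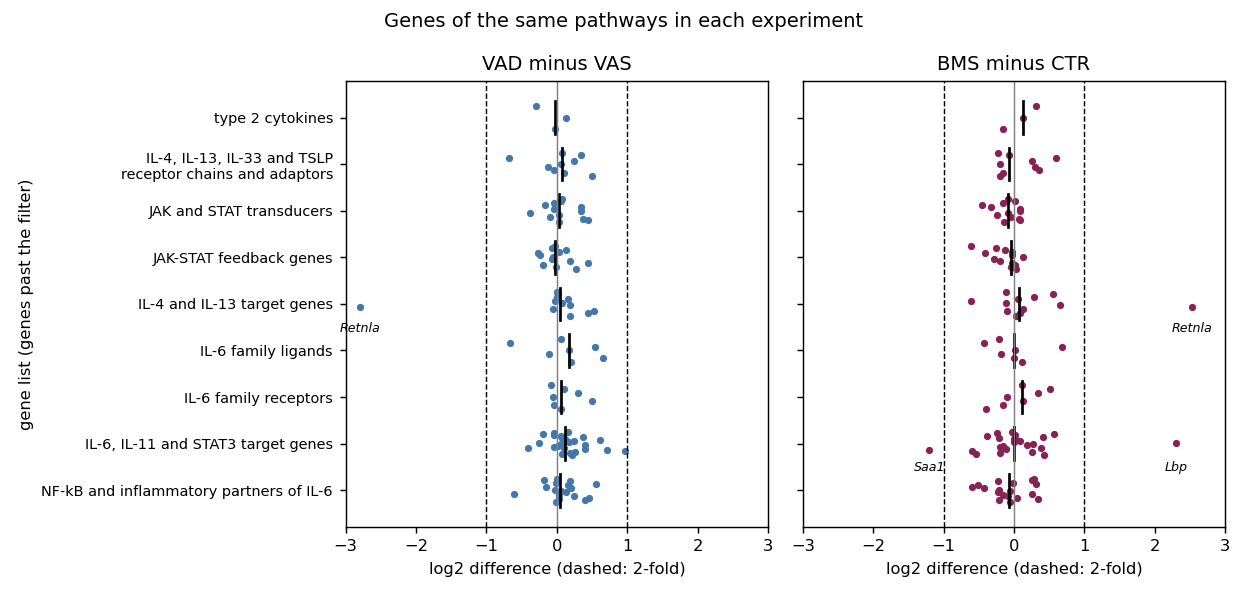
Log2 differences of the genes past the filter in 9 pathway lists (rows), for VAD minus VAS (left) and BMS minus CTR (right), with 1 dot per gene, a black bar at the list's median and dashed lines at 2-fold. Retnla is past 2-fold in opposite directions, and Lbp and Saa1 are past it in BMS minus CTR.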

How the data were processed

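The deposited table holds log2 expression values of 25206 probe sets on 4 arrays, 1 pool of 3 mice each. Per the submitters' processing notes, the authors made these log2 values with RMA from affy 1.36.1 under R 2.15.1. RMA subtracts background and gives the arrays a common distribution, which hides any change that most genes share. Whether other arrays were normalized with these is not stated in the sources used here. Scanner intensities were not used here, so detection per probe set is unknown. The number of arrays limits precision.

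Probe sets are named by Entrez number. The platform annotation named 23185 of them, 8 members included, and RefSeq's gene table named 555 more by that number, among them Il1rl1 and Il11ra1. For the 23185, 0 symbols differed between the tables. The 1466 others were left out.

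Differences of log2 values were counted at 2-fold after the filter, with no test. The joint contrast was fitted with limma 3.58.1 in R 4.3.3 (lmFit and eBayes) and tested on simulated data. Python 3.11.15 and pandas 2.3.3 were also used. Members and lists were chosen with earlier results of these data known. All members are named. The rule for pathway genes takes, per list and experiment, up to 2 a direction with the largest difference and every gene 2-fold apart. Others named, such as Stat3, Socs3, Ccl11 and the 11 genes apart between controls, were chosen after their values were seen. Alternatives were a 1.5-fold threshold, no filter, the 75th percentile (7.69) as the filter level, quantile and cyclic loess normalization, other controls, other limma settings, leaving out arrays, and, added after seeing the data, the platform annotation alone.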

Additional observations from a re-analysis of the deposited data

Results flagged for a closer look

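Among the 10 members, 7 had differences of opposite sign in the experiments (VAD minus VAS and BMS minus CTR), each from 1 array a group, so the difference between the experiments was not tested. The share of all genes with opposite signs was not computed, so the count of 7 is not shown to be particular to these members. The values here are BMS minus CTR less VAD minus VAS, on the log2 scale. Il33 had the widest of these gaps, 1.23. The gap was -0.82 for Il11 and -0.75 for Il4ra. It was -0.48 for Tslp, -0.24 for Il6st and 0.22 for Il11ra1. It was 0.37 for Il13ra2, which lay below the filter on every array. Il13ra1, Il6 and Il1rl1 had the same sign in both experiments.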

How the results depend on the processing

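Renormalizing the 4 arrays by quantiles or cyclic loess moved no member's difference by more than 0.05, and 29 of 30 differences kept their sign, Il1rl1 in VAD against VAS (-0.03, then 0.0003 with cyclic loess) being the exception. RMA had already given the arrays a common distribution, so these steps could move little. The small moves therefore say little about how the values depend on the normalization. The control mattered more. Against the other experiment's control, 2 members (Il33 and Il11) were 2-fold higher in VAD and 2 (the same genes) 2-fold lower in BMS, and of the pathway genes 10 in VAD and 5 in BMS were 2-fold apart. Against the mean of both controls, 2 pathway genes were 2-fold apart in VAD and 1 in BMS. The share of all genes 2-fold apart was not computed for either of these choices of control. The member and pathway counts against them therefore have no background beside them. At 1.5-fold, 1 member passed in VAD, 1 in BMS and 2 (Il33 and Il11) between the controls, and 8, 9 and 19 pathway genes. With no filter 2 pathway genes were 2-fold lower in VAD, and with the 75th percentile filter 7 between the controls. Under the alternative limma settings that kept all 4 arrays, 0 members and 0 of all genes were called. Leaving out 1 array set 2 arrays against 1 without the block, so only differences are given. For Il33, treated minus control was 1.32 without VAS, -0.02 without VAD, -0.64 without CTR and 0.70 without BMS. For Il4ra it was 0.19, -0.04, 0.34 and 0.57 in the same order. The block of the joint fit pairs each treated pool with the control of its experiment, and without it 0 members were called as well. The labels carry no replicate numbers, so there was no other pairing to fit.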
